A study of Rattus norvegicus with 6 samples.

Results

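The complement system was examined in the spinal cord of rats with bone cancer pain (BCP) through 9 genes, namely C1qa, C1qb, C1qc, C1s, C2, C3, Cfb, C3ar1 and C5ar1. The rows of the gene table whose gene name equals one of these symbols were taken, which gave 10 of 30957 rows, because 2 rows carry the name C2. RNA-seq had been performed on 3 BCP and 3 sham libraries, 6 in all, made from adult female Wistar rats on day 14 after surgery. BCP rats had received living Walker 256 cells, a rat breast carcinoma line, in the medullary cavity of the left tibia, whereas heat-killed Walker 256 cells had been placed at the same site in the sham group. The tissue of both groups was the ipsilateral part of the lumbar enlargement, freed of the meninges, so that the grafted bone itself was not sampled. The labels do not say whether each library came from a separate rat, so the p-values measure the spread between these libraries, which may be technical. The comparison of the groups asks which complement genes differ in the spinal cord between rats with a tumor in the tibia and rats without one.

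Complement is a cascade of plasma and tissue proteins that marks targets for uptake or lysis. In the classical pathway C1q, built of A, B and C chains, recognizes a target and activates the proteases C1r and C1s, which cleave C4 and C2 to form an enzyme that cleaves C3. In the alternative pathway factor B, encoded by Cfb, takes the place of C2. The released fragments C3a and C5a are sensed by the receptors encoded by C3ar1 and C5ar1. In the nervous system microglia are the main known source of C1q, and C1q and C3 are known for tagging synapses for removal by microglia.

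Promoters were available for 4 of the 9 genes, C1qa, C1qb, C3 and C3ar1, in RefSeq on build GRCr8. The 250 bases before the transcription start of 3 of them are shown because C1qa and C1qb were the closest pair of members in pattern over the libraries, and C3 had the most counts. They were read 5′ to 3′ on the gene's strand, the minus strand in all 3, and capitals mark the matches to the motifs searched. The C1qa window is chr5:154419934-154420183, the C1qb window is chr5:154407828-154408077, and the C3 window is chr9:2201340-2201589.
C1qa: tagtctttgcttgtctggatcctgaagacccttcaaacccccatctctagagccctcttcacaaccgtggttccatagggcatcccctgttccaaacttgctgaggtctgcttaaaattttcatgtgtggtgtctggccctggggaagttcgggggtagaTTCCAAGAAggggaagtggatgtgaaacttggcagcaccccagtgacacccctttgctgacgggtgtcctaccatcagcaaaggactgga
C1qb: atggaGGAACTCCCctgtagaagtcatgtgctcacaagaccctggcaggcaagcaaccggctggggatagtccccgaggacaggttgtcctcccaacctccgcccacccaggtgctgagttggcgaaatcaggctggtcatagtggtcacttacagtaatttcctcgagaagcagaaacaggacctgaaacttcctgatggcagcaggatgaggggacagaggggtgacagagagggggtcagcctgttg
C3: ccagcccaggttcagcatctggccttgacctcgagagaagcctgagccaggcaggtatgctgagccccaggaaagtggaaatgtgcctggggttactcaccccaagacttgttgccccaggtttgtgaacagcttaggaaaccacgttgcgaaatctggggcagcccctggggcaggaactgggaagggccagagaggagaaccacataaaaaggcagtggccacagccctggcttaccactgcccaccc

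The motifs GAAANNGAA (interferon-response type), TTCNNNGAA (STAT type), GAGGAAG (PU.1 type), GGGANTTCC (NF-kappa-B type) and TATAAA were searched on both strands, from 250 bases before the start to 50 bases after it. C1qa held TTCNNNGAA from position -90 to -82 as counted from the start, a palindrome that reads alike on both strands, and 8.87% of the 33469 promoters in the table hold this motif. C1qb held GGGANTTCC on the opposite strand from -245 to -237, which 1.64% of all promoters hold. C3 and C3ar1 held none of the 5 motifs. GAAANNGAA, GAGGAAG and TATAAA were absent from all 4 windows, and 9.71%, 12.4% and 14.2% of all promoters hold them. The matches overlapped no other motif searched. They are descriptions of letters, not of bound sites.

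All 10 rows were higher in the 3 BCP libraries than in the 3 sham libraries with no overlap, which was the case for 21.7% of the 14908 genes tested. By edgeR's quasi-likelihood test 9 of the 10 rows were up-regulated in BCP rats and 0 were down-regulated, where a call needs a log2 fold change (log2FC) beyond 1 in either direction and an adjusted p-value under 0.05. Of all genes tested 6.35% were up-regulated and 0.107% down-regulated by the same rule. The median log2FC was 2.43 over the 10 rows and -0.01 over all genes tested. Levels are given as CPM, a library's counts of a gene scaled to a common total of gene counts, after TMM normalization. Summed over the 10 rows they were 318, 284 and 211 CPM in the sham libraries against 1577, 1619 and 1865 CPM in the BCP libraries, a ratio of 6.23. The rows named C2 and Cfb, 3 of the 10, overlap on the genome, and how their shared reads were counted is not known. They are therefore not separate units in this sum, the median or the counts of rows. In bulk tissue a larger number of cells of a type and more RNA per cell cannot be told apart.

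**Figure D1:**
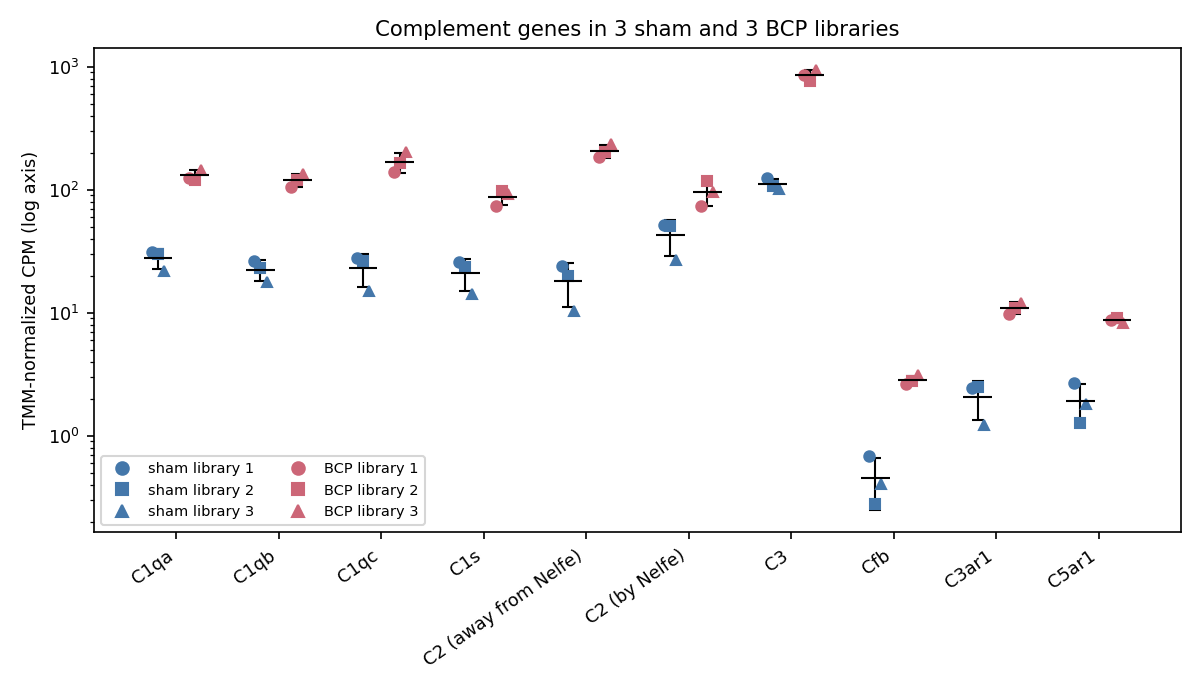
TMM-normalized CPM (log axis) of the 10 complement rows in each library, sham libraries in blue and BCP libraries in red, with the group mean and SD (n = 3) in black. In every row the 3 BCP points lie above the 3 sham points, from below 1 CPM for Cfb to over 100 CPM for C3 in the sham libraries.

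The 3 chains of C1q, the recognition molecule of the classical pathway, were up-regulated together. C1qa (ENSRNOG00000012807, chr5:155261250-155264143, build Rnor_6.0) was at 31.2, 30.2 and 21.8 CPM in the sham libraries and at 125, 121 and 146 CPM in the BCP libraries. Its log2FC was 2.24 (SE 0.15, adjusted p = 1.73e-04, edgeR). C1qb (ENSRNOG00000012749, chr5:155246447-155252003) was at 26.2, 23.1 and 17.8 CPM in the sham libraries and at 106, 121 and 134 CPM in the BCP libraries, with a log2FC of 2.43 (SE 0.16, adjusted p = 1.28e-04, edgeR). For both genes sham library 3 was the lowest of all 6 and BCP library 3 the highest. C1qc (ENSRNOG00000012804, chr5:155255005-155258392), which lies between them, was at 27.8, 26.2 and 15.1 CPM in the sham libraries and at 140, 164 and 202 CPM in the BCP libraries. Its log2FC was 2.88 (SE 0.29, adjusted p = 0.00335, edgeR), and its libraries spread more widely within each group than those of C1qa and C1qb.

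C1qc did not keep the same proportion to the other chains in the libraries of the groups. The log2 ratio of C1qc to C1qa was -0.16, -0.20 and -0.53 in the sham libraries against 0.17, 0.44 and 0.47 in the BCP libraries, so C1qc had fewer counts than C1qa in every sham library and more in every BCP library. The groups differed by 0.66 on the log2 scale. For C1qc to C1qb the difference was 0.47, again with no overlap between the groups. For C1qb to C1qa it was 0.19, from -0.25, -0.38 and -0.30 in the sham libraries to -0.24, 0.00 and -0.13 in the BCP libraries. In that ratio sham library 1 and BCP library 1 were nearly equal, so the groups were barely separated. Each of these 3 differences had an exact two-sided permutation p of 0.1, which is the smallest that 3 against 3 libraries can give, and an adjusted p of 0.138 over the 11 ratios computed. None could therefore pass the threshold.

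C1s, the protease of the C1 complex that cleaves C4 and C2, was up-regulated with C1q. C1s (ENSRNOG00000011971, chr4:157143592-157155609) was at 25.8, 23.7 and 14.1 CPM in the sham libraries and at 74.2, 98.3 and 91.6 CPM in the BCP libraries, with a log2FC of 2.06 (SE 0.27, adjusted p = 0.00652, edgeR). In edgeR's test against a fold change of 2 it did not pass (adjusted p = 0.0913). Its partner C1r, which activates it, was at 48.6, 46.5 and 22.2 CPM in the sham libraries and at 80.6, 138 and 108 CPM in the BCP libraries. C1r had a log2FC of 1.48 (SE 0.40, adjusted p = 0.0626, edgeR) and was not called. For C1r as for C1s the lowest sham library was library 3 and the lowest BCP library was library 1. The log2 ratio of C1s to C1r was -0.91, -0.97 and -0.65 in the sham libraries against -0.12, -0.49 and -0.23 in the BCP libraries. The ratio of C1s to the mean of the C1q chains went the other way, from a mean of -0.21 ± 0.12 (SD, n = 3) in the sham libraries to -0.65 ± 0.18 (SD, n = 3) in the BCP libraries, with an exact permutation p of 0.1 for each of these ratios.

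The rows named C2 and Cfb cover one stretch of chromosome 20 and cannot be read as separate genes. The Cfb row (ENSRNOG00000000419, chr20:4536263-4561062) spans nearly all of both C2 rows. One C2 row (ENSRNOG00000051158, chr20:4536203-4542947) touches the neighboring gene Nelfe, with which it shares 7 bases, and the other C2 row (ENSRNOG00000051235, chr20:4542340-4561152) lies away from Nelfe. In the gene order of RefSeq on build GRCr8, Cfb stands between C2 and Nelfe, so the C2 row by Nelfe occupies the place that Cfb has there. How reads shared by overlapping rows were counted is not given in the sources used here. C2 encodes the protease that joins C4b in the classical C3 convertase, and factor B is its counterpart in the alternative pathway.

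The C2 row away from Nelfe had the largest log2FC of the 10 rows. It was at 24.0, 19.9 and 10.3 CPM in the sham libraries and at 184, 203 and 234 CPM in the BCP libraries, with a log2FC of 3.53 (SE 0.33, adjusted p = 0.00240, edgeR). The C2 row by Nelfe was at 51.8, 50.4 and 26.7 CPM in the sham libraries and at 73.7, 117 and 96.7 CPM in the BCP libraries. Its groups did not overlap, but with a log2FC of 1.16 (SE 0.34, 95% interval 0.23 to 2.10, adjusted p = 0.0802, edgeR) it was not called. It was called by DESeq2 (adjusted p = 0.00586) and by edgeR's exact test (adjusted p = 2.07e-06) and likelihood ratio test (adjusted p = 0.00563). In no fit that left out 1 library was it called (adjusted p = 0.0897 to 0.209, edgeR). It was called with sham library 3 and BCP library 1 left out together (log2FC 1.08, adjusted p = 2.62e-08, edgeR). These are the lowest libraries of their groups for this row and were picked after seeing the data, so this call adds no support. Of 21 alternatives 7 called the row, this one included, with adjusted p-values over all of them from 2.62e-08 to 1.00. The row named Cfb held few counts, namely 9, 4 and 6 in the sham libraries against 31, 39 and 41 in the BCP libraries. Its levels were 0.686, 0.279 and 0.405 CPM against 2.62, 2.79 and 3.10 CPM, with a log2FC of 2.63 (SE 0.36, adjusted p = 1.22e-05, edgeR). With limma on log2(FPKM + 1) its difference was 0.69 on that scale, under the fold threshold, and it was not tested where at least 10 counts in every library were required.

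Added together, the 3 rows of this stretch held 76.5, 70.6 and 37.4 CPM in the sham libraries against 260, 323 and 333 CPM in the BCP libraries, a ratio of 4.97. The row by Nelfe held 67.7%, 71.4% and 71.4% of this sum in the sham libraries against 28.3%, 36.4% and 29.0% in the BCP libraries. The row away from Nelfe held 31.4%, 28.2% and 27.5% against 70.6%, 62.8% and 70.1%. The balance between the rows was thus turned around in every BCP library, and the log2 ratio of the row away from Nelfe to the row by Nelfe differed by 2.40 between the groups (exact permutation p of 0.1, the smallest possible, adjusted p = 0.138). This ratio was added after the rows had been seen. Against the Cfb row, the row away from Nelfe differed by 0.87 on the log2 scale with overlapping groups (exact permutation p = 0.200, adjusted p = 0.244) and the row by Nelfe by -1.53 with no overlap (exact permutation p of 0.1, adjusted p = 0.138).

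C3, the component on which all pathways converge, had the most counts of the 10 rows in every library. C3 (ENSRNOG00000046834, chr9:9721105-9747167) was at 125, 107 and 102 CPM in the sham libraries and at 854, 772 and 939 CPM in the BCP libraries, with a log2FC of 2.94 (SE 0.11, adjusted p = 5.87e-06, edgeR). Its SE was the smallest of the 10 rows. C3 took 39.3%, 37.6% and 48.3% of the summed CPM of the 10 rows in the sham libraries against 54.1%, 47.7% and 50.3% in the BCP libraries, so the groups overlapped in this share. The log2 ratio of C3 to the mean of the C1q chains was 2.14, 2.02 and 2.50 in the sham libraries against 2.80, 2.53 and 2.57 in the BCP libraries, which did not overlap (difference 0.41, exact permutation p of 0.1). The log2 ratio of C3 to the Cfb row was 8.02 ± 0.54 (SD, n = 3) in the sham libraries against 8.23 ± 0.12 (SD, n = 3) in the BCP libraries, a difference within the spread of the sham libraries (exact permutation p = 0.600).

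Both anaphylatoxin receptors were up-regulated from low levels. C3ar1 (ENSRNOG00000009211, chr4:155684029-155690869), which encodes the C3a receptor, was at 2.44, 2.51 and 1.22 CPM in the sham libraries and at 9.81, 11.0 and 12.1 CPM in the BCP libraries. Its log2FC was 2.42 (SE 0.22, adjusted p = 5.60e-08, edgeR). C5ar1 (ENSRNOG00000047800, chr1:78186776-78195328), which encodes the C5a receptor, was counted 35, 18 and 27 times in the sham libraries against 103, 126 and 109 times in the BCP libraries, or 1.92 ± 0.711 and 8.66 ± 0.378 CPM (SD, n = 3). Its log2FC was 2.18 (SE 0.23, adjusted p = 3.73e-07, edgeR). For C3ar1 the lowest sham library was library 3, whereas for C5ar1 it was library 2. The log2 ratio of C3ar1 to C5ar1 ran from -0.58 to 1.00 in the sham libraries and from 0.17 to 0.55 in the BCP libraries. These ranges overlapped (difference 0.24, exact permutation p = 0.700).

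Levels of different genes were compared per length with the authors' FPKM values. In the sham libraries C1qa was highest with 26.1 ± 4.80 FPKM (SD, n = 3), followed by C1qc with 20.8 ± 6.25, C1qb with 20.3 ± 3.84 and C3 with 19.4 ± 2.05 FPKM, neighbors whose SDs overlapped. Within each sham library, however, C1qa was above C1qc (29.2, 28.4 and 20.5 against 25.1, 23.7 and 13.6 FPKM). The C2 row by Nelfe followed with 11.2 ± 3.68 FPKM, the C2 row away from Nelfe with 6.83 ± 2.65 and C1s with 4.86 ± 1.42 FPKM. C3ar1 with 1.00 ± 0.354 FPKM and C5ar1 with 0.968 ± 0.355 FPKM did not differ beyond their spread, and the Cfb row was at 0.129 ± 0.0583 FPKM. In the BCP libraries C1qc with 157 ± 29.8 FPKM and C3 with 154 ± 15.2 FPKM came first. They were followed by C1qa with 126 ± 13.7 and C1qb with 112 ± 13.9 FPKM, and the SDs of neighbors in this order overlapped. Within each BCP library, however, C3 was above C1qa (152, 139 and 170 against 119, 117 and 142 FPKM). C1qa was likewise above C1qb in every BCP library. The C2 row away from Nelfe rose to 80.4 ± 10.3 FPKM and stood above the row by Nelfe, which was at 25.8 ± 6.01 FPKM and whose SD overlapped that of C1s with 20.8 ± 3.07 FPKM. The row by Nelfe was nevertheless above C1s in every BCP library (19.7, 31.6 and 26.2 against 17.3, 23.3 and 21.7 FPKM). C3ar1 with 5.50 ± 0.617, C5ar1 with 4.50 ± 0.191 and the Cfb row with 0.825 ± 0.0769 FPKM again came last.

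The rest of the pathway moved unevenly. Of 52 further complement symbols 47 were found, in 48 rows, and 34 of these rows passed the filter on low counts. Of the 34 rows 8 were up-regulated and 0 down-regulated, 7 were higher and 4 lower by the adjusted p-value alone with less than a 2-fold change, and 15 did not pass the adjusted p-value. Their median log2FC was 0.31. Of all genes tested 6.35% were up-regulated, and 21.4% passed the adjusted p-value alone, 1406 higher and 1789 lower, so the share of further complement genes that were lower was close to that of all genes.

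Among the genes of initiation and the lectin pathway 3 of 9 tested were up-regulated, namely Fcnb, C4a and C1rl. Fcnb, which encodes a ficolin that recognizes sugars on targets, was at 0.839, 0.279 and 0.203 CPM in the sham libraries and at 26.4, 48.1 and 43.0 CPM in the BCP libraries, with a log2FC of 6.49 (SE 0.51, adjusted p = 7.36e-04, edgeR). C4a, one of the genes for C4, which C1s cleaves, was at 30.1, 25.2 and 13.2 CPM in the sham libraries and at 61.3, 81.9 and 79.2 CPM in the BCP libraries (log2FC 1.71, adjusted p = 0.0279, edgeR). The call of C4a was lost in 4 of the 6 fits that left out 1 library, namely without BCP library 1 (adjusted p = 0.0529), BCP library 2 (0.0987), BCP library 3 (0.0960) or sham library 2 (0.0913). Over its 21 alternatives the adjusted p ran from 2.92e-12 (edgeR's exact test) to 0.497 (edgeR's test against a fold change of 2). C4b, whose row lies within the span of C4a, had a log2FC of 1.43 (SE 0.40, adjusted p = 0.0726, edgeR) and was not called. C4a and C4b are near-identical copies, so how their reads were divided is uncertain. The C4a row spans 205868 bases and also overlaps the rows of many genes outside complement. By DESeq2 both C1r (adjusted p = 0.00197) and C4b (adjusted p = 0.00621) were called. Of 21 alternatives 7 called C1r and 8 called C4b, and the adjusted p ran up to 1.00 for each, in edgeR's test against a fold change of 2. Among those calling them was the omission of sham library 3 and BCP library 1 together, which was chosen after seeing the data. C1rl, related to C1r, had a log2FC of 1.18 (SE 0.24, adjusted p = 7.24e-04, edgeR). Its call was lost in edgeR's test against a fold change of 2 and with limma on log2(FPKM + 1), where its difference was 0.68 on that scale.

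In the alternative pathway Cfp, the gene of properdin, which stabilizes the C3 convertase, had a log2FC of 0.50 (adjusted p = 0.0124, edgeR), under the fold threshold. Cfd, the gene of factor D, had at most 0.572 CPM in a library and was not tested. Its row lies wholly inside that of another gene. In the terminal pathway, whose products form the pore, 0 of 3 genes tested were up-regulated. No row carried the name C5, so that gene was not assessed, and C9 did not pass the filter on low counts. C7 was at 4.80, 3.84 and 5.41 CPM in the sham libraries and at 8.03, 7.36 and 9.24 CPM in the BCP libraries (log2FC 0.81, adjusted p = 0.00200, edgeR), and C6 (adjusted p = 0.409) and C8g (adjusted p = 0.345) did not pass the threshold. C8a and C8b had 0 counts in all 6 libraries, where a count of 3 corresponds to 0.203 to 0.254 CPM.

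Of the regulators, which hold complement in check, 1 of 12 tested was up-regulated, a share near that of all genes. Serping1, which encodes the inhibitor of C1r and C1s, was at 21.7, 17.4 and 13.6 CPM in the sham libraries and at 132, 155 and 159 CPM in the BCP libraries, with a log2FC of 3.09 (SE 0.18, adjusted p = 1.61e-04, edgeR). Among inhibitors of the cell surface, Cd55, Cd59 and Cd46 were much closer to equal in the groups. Cr1l, also an inhibitor of the cell surface, was higher but under the fold threshold (log2FC 0.53, 95% interval 0.36 to 0.69, adjusted p = 4.04e-05, edgeR). Cd55 had a log2FC of 0.01 with a 95% interval from -0.45 to 0.46, Cd59 of -0.08 with an interval from -0.18 to 0.03 and Cd46 of -0.16 with an interval from -0.82 to 0.50. Clu (log2FC 0.35), which encodes clusterin, was likewise under the fold threshold but higher by the adjusted p-value. Vtn (-0.42), the gene of vitronectin, Csmd2 (-0.36) and Csmd1 (-0.24), 2 large membrane proteins of the nervous system with complement control domains, were lower by it.

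Of the receptors and binding proteins 4 of 9 tested were up-regulated, all of them receptors on leukocytes and microglia. Itgax, the alpha chain of complement receptor 4, was at 0.534, 0.559 and 0.405 CPM in the sham libraries and at 32.3, 36.3 and 34.5 CPM in the BCP libraries (log2FC 6.09, SE 0.17, adjusted p = 2.74e-15, edgeR). Itgam, the alpha chain of complement receptor 3, had a log2FC of 1.84 (SE 0.22, adjusted p = 0.00393, edgeR), but its row spans that of Itgax, so reads may have been shared. In edgeR's test against a fold change of 2 Itgam did not pass (adjusted p = 0.0800). Itgb2, the beta chain of both receptors, had a log2FC of 2.25 (SE 0.12, adjusted p = 2.36e-09, edgeR). C5ar2, the second receptor of C5a, was at 1.22, 0.978 and 1.22 CPM against 4.06, 3.64 and 5.00 CPM (log2FC 1.89, SE 0.27, adjusted p = 1.93e-05, edgeR). Calr and C1qbp, whose proteins bind C1q among other partners, had log2FC values of 0.32 and 0.26, and Cd93 one of 0.30. These were under the fold threshold but higher by the adjusted p-value (5.19e-05, 0.0228 and 0.0190, edgeR).

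**Figure D2:**
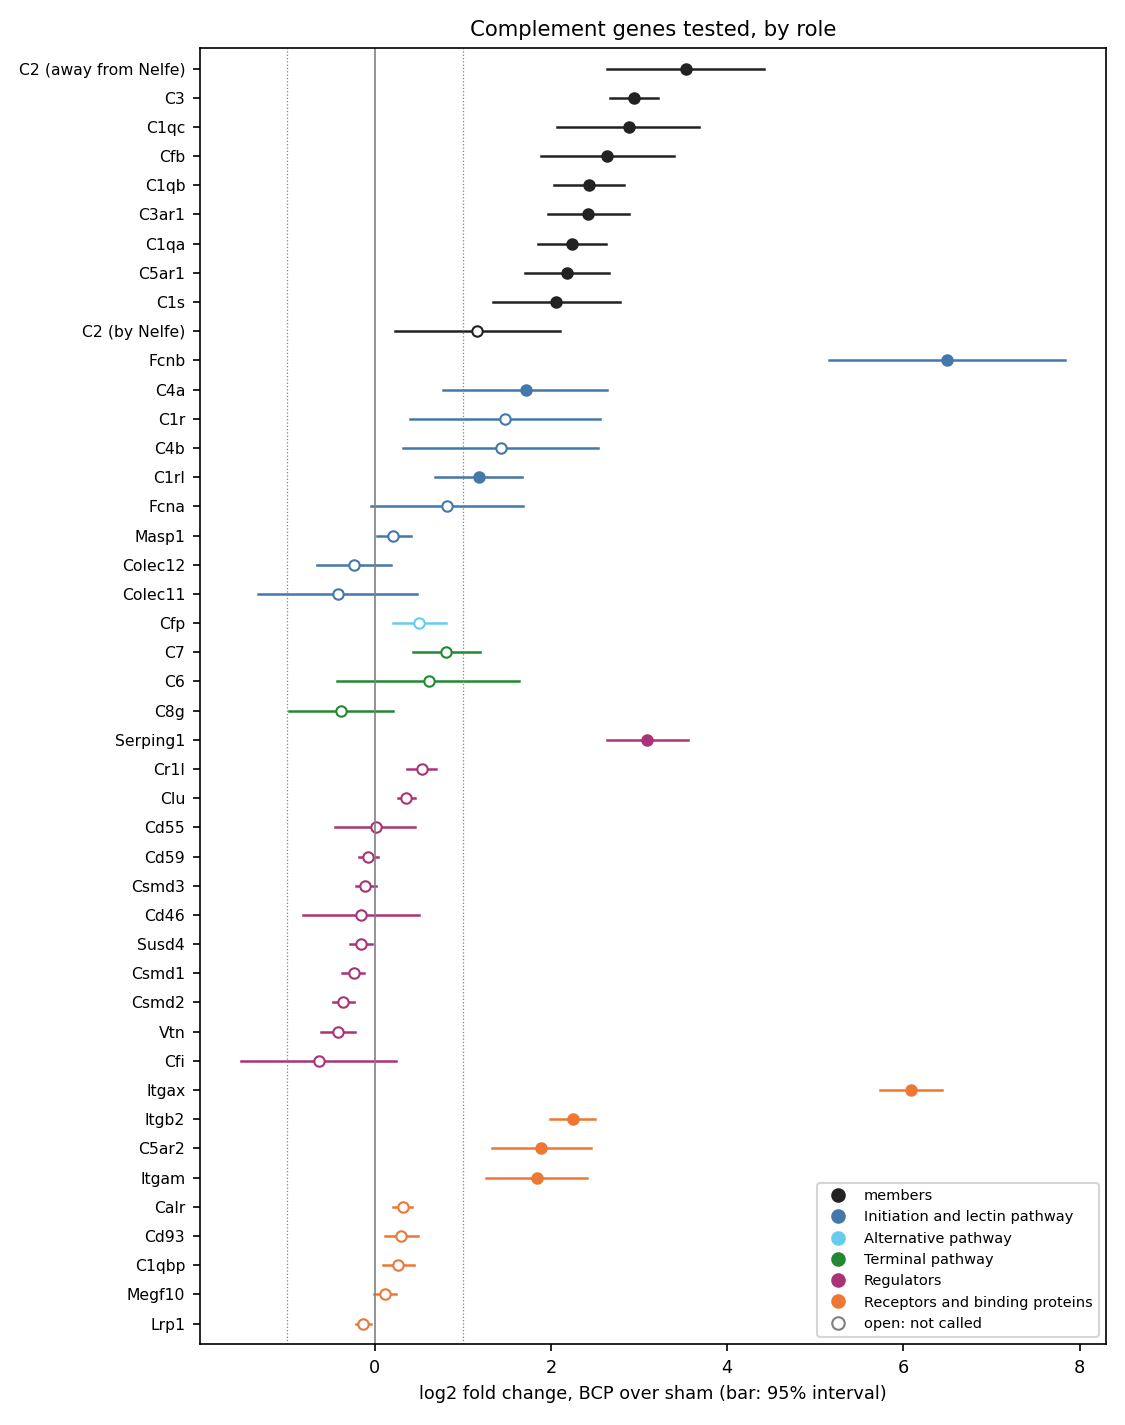
log2FC (BCP over sham) of the 10 complement rows and the 34 further complement rows tested, by role. Bars are 95% intervals, filled points were called and open points were not, and dotted lines mark a 2-fold change. The member rows lie from 1.16 to 3.53, and Fcnb and Itgax lie beyond them at 6.49 and 6.09.

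Markers of several cell types moved with these genes. Of the microglial markers 9 of 17 tested were up-regulated, and 3 were higher by the adjusted p-value alone. Their summed level ran from 431 to 511 CPM in the sham libraries and from 980 to 1176 CPM in the BCP libraries. Siglech had 0 counts. Of the 7 of them taken as markers of resting microglia and tested, 2 were up-regulated and 2 were higher by the adjusted p-value alone. The median log2FC of the 7 was 0.43. All 7 T cell markers were up-regulated, from a summed level of 6.08 to 6.64 CPM to one of 49.0 to 56.1 CPM. Cd4 held most of the sham sum (4.42, 5.66 and 5.20 CPM), whereas Cd3d, Cd3e and Cd3g had at most 1 count in a sham library. Of the neutrophil markers the 1 tested, S100a8, was up-regulated (log2FC 5.24, adjusted p = 6.20e-05, edgeR), and the summed level ran from 0.153 to 0.743 CPM in sham and from 2.12 to 5.41 CPM in BCP libraries. Of the monocyte and border macrophage markers 0 of 4 tested were called, with Ccr2 and Cd209a at 3 counts or fewer, and no B cell marker passed the filter. Of 3 red blood cell markers Hbb (log2FC 1.32) and Alas2 (1.48) were up-regulated, and Hba1, which held most of their counts, was higher by the adjusted p-value alone (log2FC 1.00). The summed level of the 3 was 172 to 177 CPM in sham and 295 to 455 CPM in BCP libraries. No marker of astrocytes, neurons, oligodendrocytes, endothelial cells or meninges was called. For some of them 1 library stood apart. Aqp4 was at 2415 CPM in BCP library 1 against 354 to 379 CPM in the other libraries, and Col1a1 at 84.1 CPM there against 19.1 to 33.0 CPM. Slc1a3 was at 98.1 CPM in sham library 1 against 251 to 328 CPM in the others. By the adjusted p-value alone, however, all 6 oligodendrocyte markers were lower, with log2FC values from -0.56 to -0.27, as were 3 of 6 neuronal markers, and of the 6 astrocyte markers 1 was higher (Gfap, log2FC 0.80) and 2 were lower. Of the hepatocyte markers, the cells that make most plasma complement, 0 were up-regulated, 1 (Alb) was down-regulated and the summed level was at most 5.73 CPM. Defining markers of the labeled tissue were abundant, with summed levels of 5262 to 6160 CPM for neurons and 27409 to 43528 CPM for oligodendrocytes. The part of these cell types in the complement changes was not tested.

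The microglial markers did not change alike. Without Itgam, which is also a complement gene, their log2FC values ran from -0.13 for Olfml3 to 3.42 for Ly86, and those of Adgre1 (2.50), Aif1 (2.40) and Tyrobp (2.20) were as large as those of several complement rows. As a description, the log2 CPM of each row was taken relative to the mean log2 CPM of the 16 microglial markers that passed the filter and are not complement genes. Relative to these C3 was at 3.06, 2.97 and 2.96 in the sham libraries and at 4.78, 4.76 and 4.74 in the BCP libraries, a difference of 1.76 between groups whose libraries lay within 0.05 and 0.02 (SD, n = 3). C1qa differed by 1.07, C1qb by 1.26 and C1qc by 1.73, with no overlap. The receptors C3ar1 and C5ar1 differed by 1.31 and 1.06, C1s by 0.91, the Cfb row by 1.55 and the C2 row away from Nelfe by 2.42, also with no overlap. For each of these 9 rows the exact permutation p was 0.1, the smallest possible, and the adjusted p over the 10 rows was 0.111. The C2 row by Nelfe was at 1.57 ± 0.47 in the sham libraries against 1.58 ± 0.41 in the BCP libraries (SD, n = 3), with overlapping groups (exact permutation p = 1.00).

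**Figure D3:**
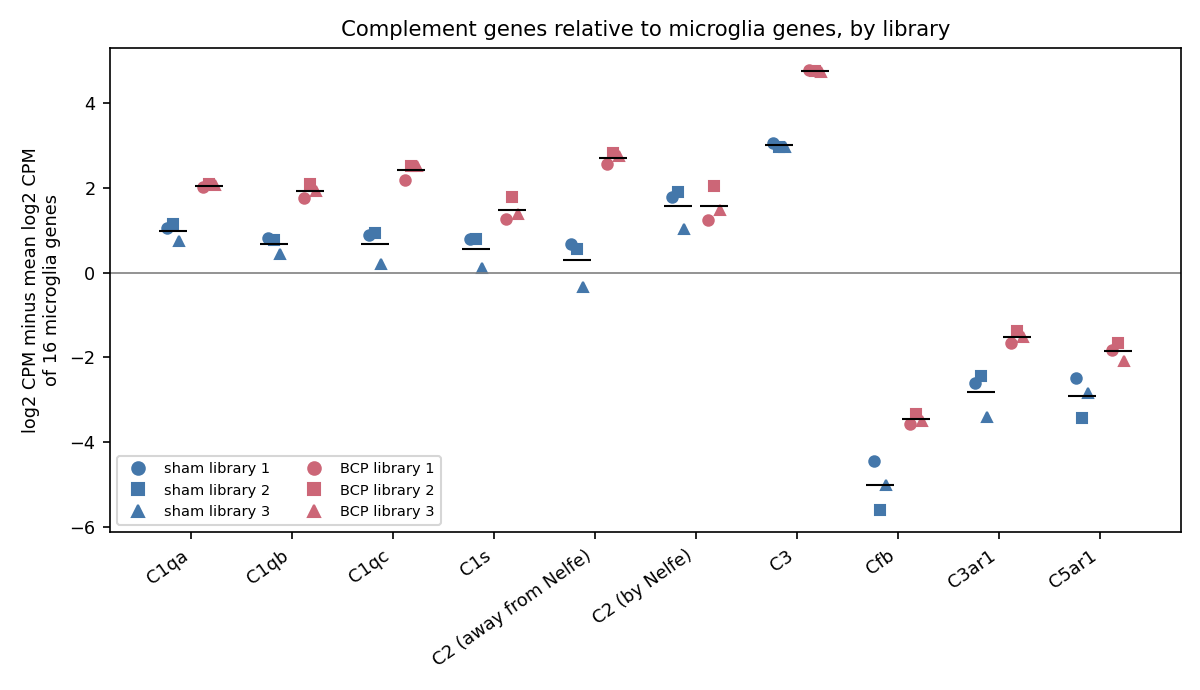
log2 CPM of each complement row minus the mean log2 CPM of 16 microglial markers, by library, with group means as black lines. BCP libraries lie above sham libraries for all rows but the C2 row by Nelfe, and the points of C3 nearly coincide within each group.

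The libraries of a group differed in a similar way for many of the complement genes. Sham library 3 was the lowest sham library for 8 of the 10 rows, as it was for 35.8% of all genes tested and for 59.2% of the up-regulated genes. Its level relative to the geometric mean of the other sham libraries was 0.470 for the C2 row away from Nelfe, 0.491 for C3ar1, 0.522 for the C2 row by Nelfe, 0.558 for C1qc and 0.572 for C1s. It was 0.711 for C1qa, 0.722 for C1qb and 0.882 for C3, and it was 0.926 for the Cfb row and 0.996 for C5ar1. BCP library 1, the smallest library, was the lowest BCP library for 7 of the 10 rows, as it was for 35.9% of all genes tested and for 74.8% of the up-regulated genes. Its levels relative to the other BCP libraries ran from 0.692 for the C2 row by Nelfe to 1.01 for C5ar1. These are the libraries that were left out together above. Without them all 10 rows were up-regulated, but they were picked after seeing the data, so this count adds no support. In each fit that left out 1 library the count was 9.

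**Figure D4:**
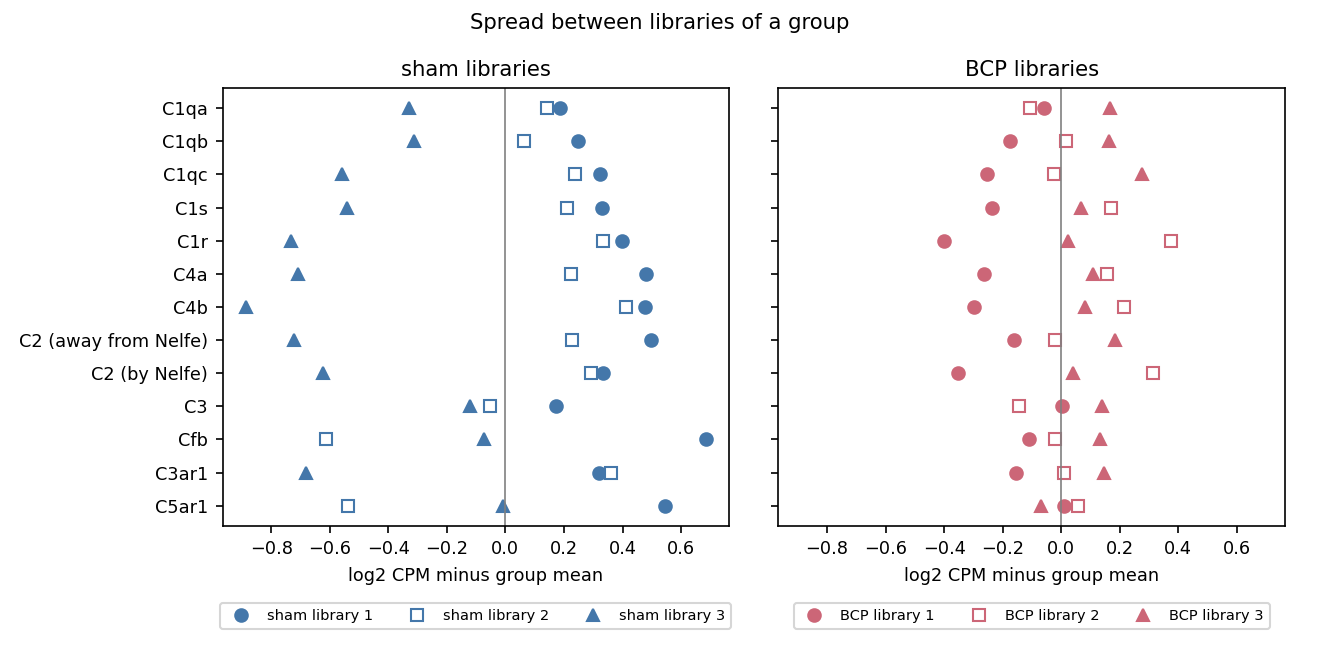
log2 CPM of each library minus the mean of its group, for the 10 complement rows and for C1r, C4a and C4b, sham libraries on the left and BCP libraries on the right. Sham library 3 lies well to the left for most rows but near the center for C3, Cfb and C5ar1, and BCP library 1 lies to the left for most rows with a smaller spread.

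Likeness of pattern was measured as the root-mean-square difference of log2 CPM, centered on each gene's mean, over the 6 libraries. Among the members the closest pair was C1qa and C1qb with 0.123, followed by C5ar1 and Cfb with 0.146, and the most distant pair was that of the C2 rows with 1.21. The values used include a prior count of 2, which lowers fold differences in rows with few counts. Distances of the Cfb row, whose fitted log2FC was 2.63 against 2.18 for C5ar1, are therefore uncertain. Outside the complement genes the closest gene to C1qa was Elf4 (0.0600), to C1qb Cybb (0.0541), to C1qc Amica1 (0.0768) and to C1s Tpx2 (0.109). For C3 it was Plek (0.104), for C3ar1 Lat2 (0.0625), for C5ar1 Gpr171 (0.114) and for the Cfb row Aif1 (0.128). Amica1 (0.610, 0.559 and 0.270 CPM) and Gpr171 (0.839, 0.279 and 0.405 CPM) were low in the sham libraries. Their distances are therefore uncertain as well, and the fitted log2FC of Amica1 was 3.19 against 2.88 for C1qc. Cybb, which encodes a subunit of the phagocyte NADPH oxidase, was at 20.1, 18.3 and 13.4 CPM in the sham libraries and at 75.0, 87.6 and 97.1 CPM in the BCP libraries. The C2 row away from Nelfe was closest to Ifi47 (0.112), an interferon-induced GTPase, and the row by Nelfe to Dtx3l (0.0668). Dtx3l was at 46.4, 43.4 and 23.5 CPM in the sham libraries and at 67.6, 95.5 and 78.5 CPM in the BCP libraries, with the same order of libraries as the row it was matched to.

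Of the 22783 lncRNAs measured, 4 lay within 10 kb of a member. NONRATT017549.2 and NONRATT017550.2 lay inside the stretch of C2 and Cfb, NONRATT021835.2 lay inside C1s, and NONRATT020889.2 lay 7905 bases from C1s. With at most 9 counts in a library, none of the 4 passed the filter on low counts. When all lncRNAs with counts were fitted, the lowest adjusted p among them was 0.284 (edgeR), so a difference was not detectable at this depth.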

How the data were processed

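RNA-seq libraries (total RNA, ribosomal RNA removed, strand-specific kit), 3 sham and 3 BCP, were grouped by their labels. Reads had been filtered by the authors (Seqtk) and aligned by HISAT2 2.0.4 to build Rnor_6.0, and expression was computed by StringTie 1.3.0. They deposited unnormalized counts per gene and per lncRNA, and the authors' FPKM values (fragments scaled by exon length and library total) beside them. The counting program, its use of strand and its handling of shared reads are not given in the sources used here. The files also hold annotation columns, which were not tested.

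Gene counts summed to between 11779485 and 15004290 per library and lncRNA counts to between 1946315 and 2531114. Replicates of a group differed beyond counting noise, with chi-square values of 3.61 to 6.33 per degree of freedom. The test was that of edgeR 4.0.16 under R 4.3.3 (TMM, filterByExpr, robust quasi-likelihood fit on condition alone, Benjamini-Hochberg adjustment over all 14908 genes or 12157 lncRNAs tested). The thresholds were a log2FC beyond 1 in either direction with an adjusted p-value under 0.05. TMM factors ran from 0.982 to 1.02. Gene ratios were tested with exact two-sided permutation tests over the 6 libraries. A count of 3 served as the floor and, like all counts, covers counting error only. The fit was checked on simulated counts. Figures were drawn with matplotlib 3.10.9.

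Named were all members, any of the further complement genes, tested lncRNAs within 10 kb of a member, and for each member the closest other gene by root-mean-square distance of log2 CPM (prior count 2). The 4 untested lncRNAs, markers named for their counts and Nelfe were named after their values or positions had been seen. One gene of the list of further complement genes is not reported here and enters none of its counts. Members, lists and tests were chosen with earlier results of these data known. Alternatives were DESeq2 1.42.0, edgeR's exact and likelihood ratio tests, limma 3.58.1 on log2(FPKM + 0.1) or log2(FPKM + 1), other filters and normalizations, the replicate number as a block, a test against a fold change of 2 and each library left out. The omission of sham library 3 and BCP library 1 together was chosen after seeing the data. The replicate numbers did not pair the libraries, since the correlations of same-numbered libraries were -0.105, 0.0439 and -0.0353.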

Additional observations from a re-analysis of the deposited data

How the results depend on the processing

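The number of up-regulated rows among the 10 members was 7 to 10 over 21 alternatives, and 9 in each fit that left out 1 library. No called result changed direction. Among differences whose groups overlapped, the ratio of C3 to Cfb was -0.04 without sham replicate 1, that of C3ar1 to C5ar1 was -0.10 without sham replicate 3, and the C2 row by Nelfe relative to the microglial list was -0.25 without sham replicate 3 and -0.21 without BCP replicate 2. With the replicate number as a replicate block, 7 member rows and 7 of the further complement genes were called, and C1qc (adjusted p = 0.0577), C1s (0.0514) and C4a (0.134) were not. The block changed no other call of a complement gene refitted in this way. C1s was also lost in 1 other alternative. Of the further complement genes 15 were up and 4 down with no threshold on the fold change, and 5 were up in the test against a fold change of 2. Of all genes tested 2352 were up and 1805 down with no fold threshold, and 548 were up and 0 down in the test against a fold change of 2. With limma on log2(FPKM + 1) 626 were up and 0 down, with limma on log2(FPKM + 0.1) 9 were down, or 37 with no filter. The count down in edgeR was 37 with no filter, 6 with at least 10 counts in every library, 16 to 33 with 1 library left out and 25 without sham library 3 and BCP library 1. Against the resting part of the microglial list (7 genes) in place of the whole, the differences were 1.66 for C1qa, 1.85 for C1qb, 2.32 for C1qc, 1.51 for C1s, 2.36 for C3, 2.15 for Cfb, 1.90 for C3ar1, 1.66 for C5ar1, 3.01 for the C2 row away from Nelfe and 0.61 for the C2 row by Nelfe. Low depth limits Cfb, C3ar1, C5ar1 and the nearby lncRNAs.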
